A study of Bos taurus with 20 samples.

Results

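Liver gene expression across calving was followed in 5 Holstein-Friesian dairy cows that had been fed a ration low in phosphorus before calving (LP). The 10 LP arrays were used out of 20 in the series, 5 postpartum and 5 antepartum, and each postpartum array was set against the antepartum array that carries the same animal number. Every gene was examined that a probe set of the Affymetrix bovine array names alone, which gave 20011 genes with the brightest probe set for each, so that no gene was chosen by its change. LP cows received 0.16% phosphorus in dry matter for the final 4 weeks of pregnancy, and 5 further cows with adequate phosphorus (AP) received 0.35%. Both diets were restricted in amount before calving, urea evened out the nitrogen of the LP ration, and mono-ammoniumphosphate supplied the phosphorus of the AP ration. All cows were multiparous, and from calving on both groups ate 1 lactation ration with adequate phosphorus. In LP cows the postpartum state therefore joins calving, the start of milking and the return of dietary phosphorus, which cannot be told apart within these arrays. The days between sampling and calving are not given in the sources used here. Cows are called A to E, and where 5 values follow each other they belong to cows A, B, C, D and E in that order.

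Around calving the liver of a dairy cow turns to making glucose for milk lactose, burns fatty acids released from body fat, and lowers its growth hormone receptor and its output of insulin-like growth factor. Birth also brings an acute phase reaction, in which the liver secretes haptoglobin and serum amyloid A and makes less of other plasma proteins. Phosphate is part of ATP, phospholipids and the phosphorylated intermediates of sugar metabolism, and a cow short of it mobilises bone mineral.

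The 10 arrays held the liver genes that their label calls for. Albumin (ALB) lay between 13.59 and 13.70 log2 units postpartum and between 13.58 and 13.78 antepartum, while the median gene of an array lay between 5.97 and 6.14. One array, that of cow C postpartum, was unlike the remaining 9. It held a score of 81.8 on the first principal component, which took 39.5% of the variance, against -14.8 to -4.54 for the others. The pair of cow C is the one set aside because its postpartum COL1A1, a collagen gene, was the highest, at 13.25 with 8.70 in cow B next, so that value is a description. FABP4, an adipocyte lipid-binding protein chosen after its values were seen, was 11.04 in that array and at most 2.70 in the other 4 postpartum and 2.55 in the 5 antepartum arrays. The fat cell hormone gene ADIPOQ was 11.26 there and at most 4.87 postpartum and 4.95 antepartum elsewhere.

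Over whole marker lists, the mean of 11 fibroblast or stellate cell genes was 11.24 in the postpartum array of cow C, 6.56 to 7.73 in the other postpartum arrays and 6.60 to 7.18 antepartum. Without COL1A1 the mean of the remaining 10 was 11.04 there, 6.54 to 7.64 in the other postpartum arrays and 6.58 to 7.17 antepartum. The 7 adipocyte markers averaged 9.16 in that array, 4.77 to 5.18 in the other postpartum arrays and 4.87 to 5.14 antepartum. Skeletal muscle markers (11 genes) averaged 7.32 there, against 5.18 to 5.46 and 5.17 to 5.43. The 8 hepatocyte markers averaged 12.08 in the same array, 12.34 to 12.64 in the other postpartum arrays and 12.60 to 12.72 antepartum. The mean of 7 cholangiocyte markers was higher postpartum by 1.03 in cow C, but their median difference there was -0.21. The part of these markers in the results below was not tested. Counts of pathway lists are given for all 5 cows and for the 4 cows without C. Values of single genes are given for 5 cows, and only for some also without C. In liver tissue, fewer cells of a type and less RNA per cell cannot be told apart.

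**Figure D1:**
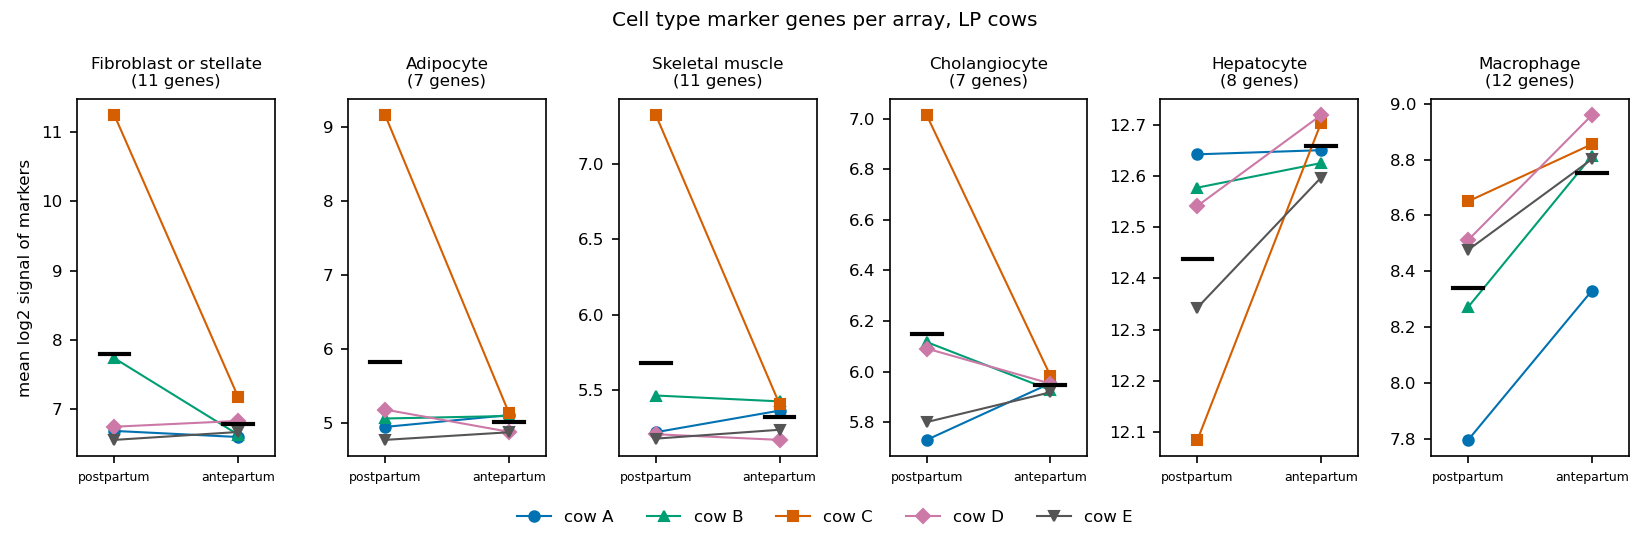
Mean log2 signal of 6 cell type marker lists in each array of the 5 LP cows, postpartum on the left and antepartum on the right, with a line per cow and a black bar for the group mean; the vertical scale differs between panels. The postpartum array of cow C lies above all others in the means of fibroblast, adipocyte and skeletal muscle markers and lowest in hepatocyte markers; its high cholangiocyte mean goes with a negative median difference, and macrophage means are lower postpartum in each cow.

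Across all 5 LP cows no single gene passed. By limma with the cow as a block, 0 of 20011 genes (0%) had a Benjamini-Hochberg adjusted p under 0.05, and 988 genes (4.94%) had an unadjusted p under 0.05, against 1001 that chance alone gives. Of these, 429 were higher (2.14%) and 559 lower (2.79%) postpartum. The 5 cows shared 1 direction in 1232 genes (6.16%), higher in 541 (2.7%) and lower in 691 (3.45%), where random signs give a share of 0.0625. A mean difference of at least 2-fold came on top of that in 30 genes (0.15%), 15 higher (0.075%) and 15 lower (0.075%). That last count was 65 without cow A and 62 without cow B, where only 4 cows had to share a direction. In 122 genes (0.61%) no postpartum value overlapped an antepartum one, with 49 higher (0.245%) and 73 lower (0.365%). With 5 pairs an exact two-sided sign-flip test cannot go below p = 0.0625, and with 4 pairs not below 0.125, so single genes were judged by the limma fit.

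Without cow C, 2 genes (0.00999%) had a limma adjusted p under 0.05 in the remaining 4 cows, both higher and none lower postpartum. They were LDHB, a subunit of lactate dehydrogenase, and APOA1, whose product is the chief apolipoprotein of high density particles. At an unadjusted p under 0.05 there were then 1285 genes (6.42%), 694 higher (3.47%) and 591 lower (2.95%). The 4 cows shared a direction in 2654 genes (13.3%), 1398 higher (6.99%) and 1256 lower (6.28%). Random signs give a share of 0.125 with 4 cows and 0.0625 with 5, so this share cannot be set against that of 5 cows.

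APOA1 stood at 9.24, 8.46, 8.63, 8.74 and 8.84 postpartum, against 7.81, 6.98, 7.77, 7.36 and 7.96 antepartum. Every postpartum value lay above every antepartum value, and the lowest of both times were those of cow B. The mean was 8.78 ± 0.29 postpartum and 7.57 ± 0.40 antepartum (SD, n = 5 cows), a difference of 1.21 (SE 0.14, 95% interval 0.89 to 1.52, 2.31-fold, limma adjusted p = 0.121). In the 4 cows without C the difference was 1.29 with an adjusted p of 0.0316 by limma.

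LDHB was nearly as even. It read 10.35, 10.09, 10.19, 10.77 and 10.59 postpartum, against 9.42, 8.95, 9.39, 9.44 and 9.23 antepartum, again with no overlap. The means were 10.40 ± 0.28 and 9.29 ± 0.21 (SD, n = 5), 2.16-fold apart (log2 difference 1.11, SE 0.129, limma adjusted p = 0.121). The interval of the difference ran from 0.82 to 1.40, and without cow C the difference was 1.19 (limma adjusted p = 0.0316).

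STK39 encodes a kinase that acts on ion cotransporters. Postpartum it read 6.58, 7.03, 8.22, 7.52 and 8.55, and antepartum 6.15, 5.44, 6.56, 6.02 and 7.07. Cows differed widely in level and the groups overlapped, yet all 5 were higher postpartum, cow A by the least. The mean difference was 1.33 (SE 0.185, limma adjusted p = 0.254) over 5 cows and 1.56 without cow A, where the adjusted p reached 0.0497.

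**Figure D2:**
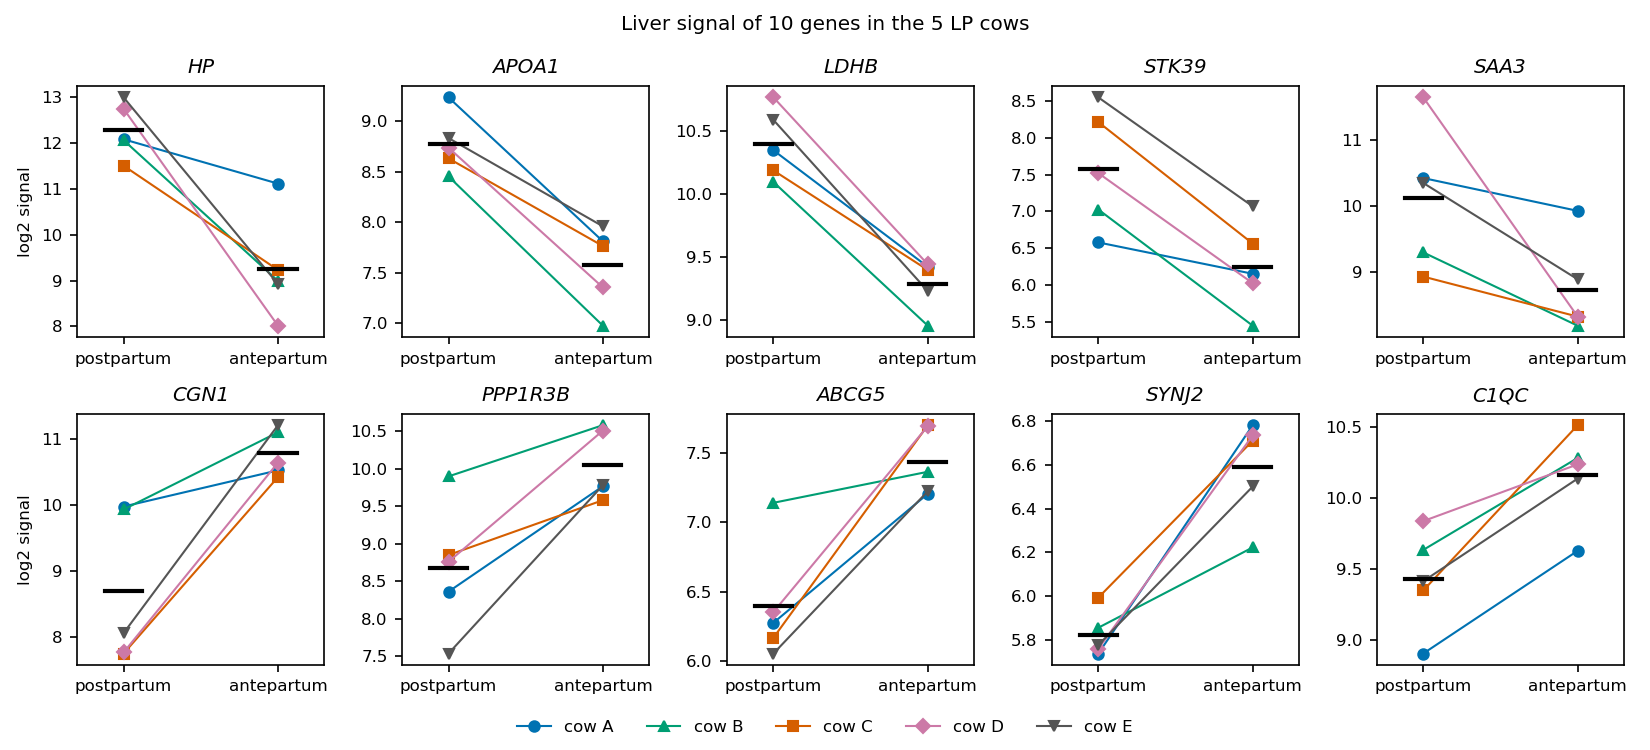
Log2 signal of 10 genes in the 5 LP cows, postpartum on the left and antepartum on the right, with a line per cow and a black bar for the group mean; the vertical scale differs between panels. All lines run one way in each panel, 5 genes higher and 5 lower postpartum, and HP, APOA1, LDHB, CGN1, ABCG5 and SYNJ2 show no overlap between the times.

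Among acute phase proteins the largest difference of the named genes was in HP, the hemoglobin-binding plasma protein haptoglobin. Its signal was 12.08, 12.06, 11.50, 12.74 and 13.00 postpartum, against 11.11, 8.99, 9.23, 8.01 and 8.92 antepartum. Cow A was already high before calving, above every other antepartum value, and had the smallest difference of 0.97, while cow D differed by 4.73. The means were 12.28 ± 0.60 postpartum and 9.25 ± 1.14 antepartum (SD, n = 5), an 8.13-fold difference (log2 3.02, SE 0.455, 95% interval 1.99 to 4.05, limma adjusted p = 0.323).

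SAA3, a serum amyloid A, was 10.42, 9.30, 8.93, 11.64 and 10.35 postpartum and 9.92, 8.19, 8.33, 8.33 and 8.89 antepartum. Here too cow A had the highest antepartum value, above the postpartum values of cows B and C. The difference was 1.40 (SE 0.356), and LCN2, which encodes the iron-siderophore binder lipocalin, was higher by 1.05 (SE 0.256), both in 5 of 5 cows. Of 34 positive acute phase genes, 8 were higher and 2 lower at an unadjusted p under 0.05, where 2.14% and 2.79% of all genes were. Without cow C, 9 were higher and 1 lower. The list's median difference was 0.10, and that of all genes was -0.00. The shares of 2.14% and 2.79% apply to every 5-cow list count below, and 3.47% and 2.95% to every count without cow C. STEAP4, a metalloreductase, was on the lower side (-0.98) with 8.34, 7.39, 7.95, 10.23 and 8.59 postpartum and 10.05, 8.68, 9.47, 9.65 and 9.52 antepartum, lower in all cows but D.

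The negative acute phase genes, whose plasma proteins fall in inflammation, showed 5 of 12 lower and 1 higher, that 1 being APOA1. Without cow C these genes gave the same counts. Their median was -0.36 over 5 cows and -0.20 over 4. TTR, the thyroxine carrier transthyretin, read 13.03, 13.01, 12.17, 12.33 and 12.34 postpartum, against 13.06, 13.26, 13.20, 13.09 and 13.14 antepartum. The groups did not overlap, but cow A differed by little and cows C, D and E by most of the mean of -0.57 (SE 0.163). AHSG, encoding fetuin-A, a plasma protein that keeps calcium phosphate in solution, was lower with a difference of -0.47 (SE 0.149) in 5 of 5 cows, with postpartum values of 12.11 to 12.69 and antepartum values of 12.70 to 13.05.

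In the growth hormone axis, IGF1 and GHR were lower postpartum in 4 of 5 LP cows. IGF1, the growth factor that the liver makes under growth hormone, stood at 8.48, 10.27, 9.70, 8.06 and 7.75 postpartum, against 9.02, 10.18, 10.00, 10.22 and 10.10 antepartum. Cows D and E were lower by more than 2 units, cows A and C by less than 1, and cow B was level. The mean difference was -1.05 (SE 0.351, limma adjusted p = 0.966), and the groups overlapped.

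The receptor and carrier genes differed less. GHR, the growth hormone receptor, was 9.70, 10.51, 9.29, 9.89 and 9.58 postpartum and 10.21, 10.44, 10.37, 10.63 and 10.55 antepartum, lower in all cows but B (mean -0.65, SE 0.172). IGFBP3 and IGFALS, which hold IGF1 in its large circulating complex, were lower in 5 of 5 cows with a difference of -0.50 (SE 0.126) and -0.61 (SE 0.199). IGFBP1, a binding protein that rises in fasting, was higher by 0.84 over 5 cows (SE 0.286) and by 1.18 over 4, since cow C alone was lower. IGFBP5 had a mean of 1.09, of which cow C gave most, and 0.42 without it. In the list of 25 genes, 2 were higher and 5 lower at an unadjusted p under 0.05, and 5 and 5 without cow C. Of all genes 2.14% and 2.79% were, and 3.47% and 2.95% without cow C.

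Of 3 measured genes that target a phosphatase to glycogen, PPP1R3B and PPP1R3C were lower in each LP cow, while PPP1R3D, named after its value was seen, differed by -0.04. PPP1R3B, which favours glycogen synthesis in liver, was 8.36, 9.90, 8.85, 8.76 and 7.54 postpartum, against 9.77, 10.58, 9.58, 10.51 and 9.78 antepartum. Each cow was lower, cow E by 2.24, and only the high values of cow B made the groups overlap (mean -1.36, SE 0.226, limma adjusted p = 0.323). Its relative PPP1R3C read 7.73, 9.47, 7.74, 8.38 and 7.08 postpartum and 8.80, 9.93, 8.85, 9.72 and 10.07 antepartum, a difference of -1.39 (SE 0.302). UGP2, which makes the UDP-glucose from which glycogen is built, was lower with a difference of -0.42 (SE 0.136) in 5 of 5 cows. GAA, the lysosomal enzyme that degrades glycogen, was higher by 0.33 in 4 of 5, and PDK4, which holds pyruvate back from oxidation, by 0.46 in 4 of 5. Of the 27 genes of glycolysis and glycogen, 2 were higher and 3 lower, against 2.14% and 2.79% of all genes, with a median of -0.04. Without cow C, 3 were higher and 3 lower (median 0.04).

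The glucose-making genes looked different with and without cow C. Of 26 genes of gluconeogenesis and lactate use, 3 were higher and 2 lower over 5 cows (median 0.08), and 11 were higher and 1 lower over the 4 cows without C (median 0.26), against 3.47% and 2.95% of all genes. LDHA, the second lactate dehydrogenase subunit, was higher by 0.63 (SE 0.192), and MPC1, a subunit of the mitochondrial pyruvate carrier, by 0.39 (SE 0.168). SLC2A2, the glucose transporter of the hepatocyte surface, was lower with a difference of -0.62 (SE 0.206), and SLC37A4, which carries glucose 6-phosphate into the endoplasmic reticulum, with -0.42 (SE 0.187). Without cow C the differences of SLC2A2 and SLC37A4 were -0.40 and -0.20.

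PC and PCK1 were picked after their values were seen, because the 4-cow count turns on such genes. PC, pyruvate carboxylase, the entry step of gluconeogenesis, stood at 10.10, 9.08, 8.67, 10.23 and 10.83 postpartum, against 9.96, 8.65, 9.12, 8.74 and 8.54 antepartum. Cows D and E were higher by over 1 unit and cow C was lower, so that the mean was 0.78 (SE 0.344) over 5 cows and 1.08 without C. PCK1, which encodes cytosolic phosphoenolpyruvate carboxykinase, was 12.15, 11.97, 11.12, 12.09 and 11.68 postpartum and 11.83, 11.32, 11.94, 11.78 and 11.14 antepartum. It was higher in every cow but C, by 0.20 over 5 cows and 0.46 over 4 (limma adjusted p = 0.485 in the 4).

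Fatty acid oxidation followed the same split. Over 5 cows 2 of 38 genes were higher and 2 lower (median -0.00), and over 4 cows 11 were higher and 2 lower (median 0.14). Among all genes the shares were 2.14% and 2.79% over 5 cows, and 3.47% and 2.95% over 4. CPT1B, a carnitine palmitoyltransferase that admits fatty acids to mitochondria, read 6.67, 6.57, 6.10, 6.96 and 7.06 postpartum, against 6.18, 6.03, 6.43, 6.24 and 5.59 antepartum, and cow C was the exception to a higher signal. Its mean difference was 0.57 (SE 0.219) over 5 cows and 0.80 over 4. CPT1A, another carnitine palmitoyltransferase gene of the list, named after its value was seen, differed by 0.01 over 5 cows and 0.17 over 4. ANGPTL4, an inhibitor of lipoprotein lipase, was higher by 0.52 (SE 0.226), while ACSL5, a fatty acyl-CoA synthetase, and DECR1, an enzyme of unsaturated fatty acid breakdown, were lower with a difference of -0.51 and -0.47. Of 9 ketone body genes only the monocarboxylate carrier SLC16A1 had an unadjusted p under 0.05 (0.53, higher in 3 of 5 cows), and none had without cow C.

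In the fatty acid and triglyceride synthesis list, SLC13A5 and FADS2 differed unevenly between cows. SLC13A5, the citrate importer of the hepatocyte, was 8.53, 6.55, 8.02, 10.35 and 9.61 postpartum and 8.56, 6.31, 7.02, 6.78 and 5.44 antepartum. Cows D and E were higher by more than 3 units, cow C by 1.00, and cows A and B hardly differed, which gave a mean of 1.79 with an SE of 0.59. FADS2, the delta-6 fatty acid desaturase, read 12.21, 12.45, 10.19, 10.82 and 8.92 postpartum and 12.18, 12.48, 11.69, 12.42 and 12.26 antepartum, lower in cows C, D and E and level in A and B (mean -1.29, SE 0.427). GPAM, the first enzyme of triglyceride synthesis, was lower with a difference of -0.38 (SE 0.168). Of 30 genes, 1 was higher and 2 lower, and 1 and 4 without cow C.

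Cholesterol synthesis genes separated the cows. Their per-cow median differences were 0.97, 0.63, -0.67, 0.09 and -0.41, so that 2 cows were clearly higher and 2 lower, and no gene of 22 had an unadjusted p under 0.05 (2 without cow C, both higher).

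Among lipoprotein genes, APOC2, the activator of lipoprotein lipase, was higher in 5 of 5 cows by 0.45 (SE 0.135), and LIPG, endothelial lipase, by 0.70 (SE 0.191). The LIPG difference was 1.63 in cow C, and its mean was 0.47 without that cow. APOH, a phospholipid-binding plasma protein, was lower in 5 of 5 cows with a difference of -0.34 (SE 0.121). The list of 23 held 5 higher and 2 lower, against 2.14% and 2.79% of all genes, and 6 and 1 without cow C.

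Of 22 genes of bile acid synthesis and transport, 4 were lower and none higher at an unadjusted p under 0.05. Without cow C, 3 were lower and 3 higher. The shares of all genes were 2.79% lower and 2.14% higher (2.95% and 3.47% without cow C). ABCG5 and ABCG8 encode the paired transporter that pumps sterols into bile. ABCG5 was 6.27, 7.14, 6.17, 6.35 and 6.05 postpartum, against 7.21, 7.37, 7.70, 7.70 and 7.23 antepartum, with all postpartum values below all antepartum ones and the smallest step in cow B. The difference was -1.04 (SE 0.185, limma adjusted p = 0.345). ABCG8 read 6.37, 7.80, 6.65, 7.11 and 6.56 postpartum and 6.84, 8.36, 7.59, 8.15 and 7.89 antepartum, lower in each cow (-0.87, SE 0.149, limma adjusted p = 0.323).

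NR0B2 encodes the small heterodimer partner, a nuclear receptor that represses bile acid synthesis. It stood at 6.35, 7.46, 6.65, 7.29 and 5.43 postpartum and 8.50, 7.62, 7.80, 8.45 and 7.70 antepartum. The highest postpartum value, in cow B, was below the lowest antepartum one, also in cow B. The mean difference was -1.38 (SE 0.278) and moved to -1.44 without cow C.

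Amino acid breakdown also depended on cow C, with 0 higher and 4 lower of 34 genes over 5 cows (median -0.11) and 7 higher and 1 lower over 4 (median 0.06). All genes gave 2.14% and 2.79% over 5 cows, and 3.47% and 2.95% over 4. GLUL, glutamine synthetase, was lower with a difference of -0.38 (SE 0.135), KMO, of tryptophan breakdown, with -0.60 (SE 0.218) and OTC, of the urea cycle, with -0.71 (SE 0.279). OTC moved to -0.39 without cow C, where its postpartum signal was 8.60 against 10.61 antepartum. HAL, which opens histidine breakdown, was 9.82, 8.34, 7.78, 9.00 and 10.08 postpartum and 9.50, 7.62, 8.71, 7.86 and 7.77 antepartum, higher in all but cow C (0.71, SE 0.368, and 1.12 without C). ARG1, the arginase of the urea cycle, which was chosen after its values were seen, differed by 0.24 over 5 cows and 0.60 over 4.

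Genes that handle phosphate itself did not stand out. Of 24 phosphate and pyrophosphate genes, 0 were higher and 2 lower, and 1 and 1 without cow C. Their median was -0.00 (0.12 without cow C). SLC20A1, a sodium-dependent phosphate importer of the cell surface, read 7.93, 8.07, 8.28, 8.29 and 7.68 postpartum, against 8.95, 8.33, 8.30, 8.31 and 8.83 antepartum. All postpartum values lay below all antepartum ones, but cows C and D hardly differed, and cows A and E gave most of the mean of -0.49 (SE 0.194, limma adjusted p = 0.966). ENPP1, which makes pyrophosphate from ATP, was lower with a difference of -0.39 (SE 0.143) in 5 of 5 cows.

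Of 42 inositol phosphate genes 1 was higher and 1 lower, against 2.14% and 2.79% of all genes, and 2 and 1 without cow C. SYNJ2, an inositol phosphatase of membrane lipids, was 5.74, 5.85, 5.99, 5.76 and 5.78 postpartum, against 6.78, 6.22, 6.71, 6.74 and 6.50 antepartum. The 5 postpartum values lay within 0.25 of each other and below all antepartum values (-0.77, SE 0.132, limma adjusted p = 0.323). ITPKA, an inositol trisphosphate kinase, was higher by 0.40 (SE 0.143). Adenine nucleotide genes gave 2 higher and 2 lower of 25, against the same shares of all genes, and 1 and 1 without cow C. AK4, a mitochondrial adenylate kinase, stood at 7.22, 8.44, 7.72, 6.67 and 7.00 postpartum and 7.54, 8.45, 8.77, 9.10 and 9.05 antepartum, lower by over 2 units in cows D and E and by 0.01 in cow B (mean -1.17, SE 0.331). NT5C2, a nucleotidase, was higher by 0.44 (SE 0.163) and CKB, a creatine kinase, by 0.45 (SE 0.174). PRPS2, of nucleotide synthesis, was lower with a difference of -0.27 (SE 0.116). Without cow C the differences of NT5C2, CKB and PRPS2 were 0.29, 0.30 and -0.25, none with an unadjusted p under 0.05.

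In the vitamin D and calcium list 1 of 25 was higher and 1 lower, and 0 and 0 without cow C. The vitamin D receptor VDR had 5.42, 5.16, 6.26, 5.29 and 5.19 postpartum and 5.05, 5.38, 5.20, 4.88 and 4.77 antepartum, a mean difference of 0.41 (SE 0.172) that was 0.24 without cow C. RGN, the calcium-binding protein regucalcin, was lower with a difference of -0.53 (SE 0.195), and with -0.32 without cow C. Neither gene had an unadjusted p under 0.05 in the 4 cows.

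**Figure D3:**
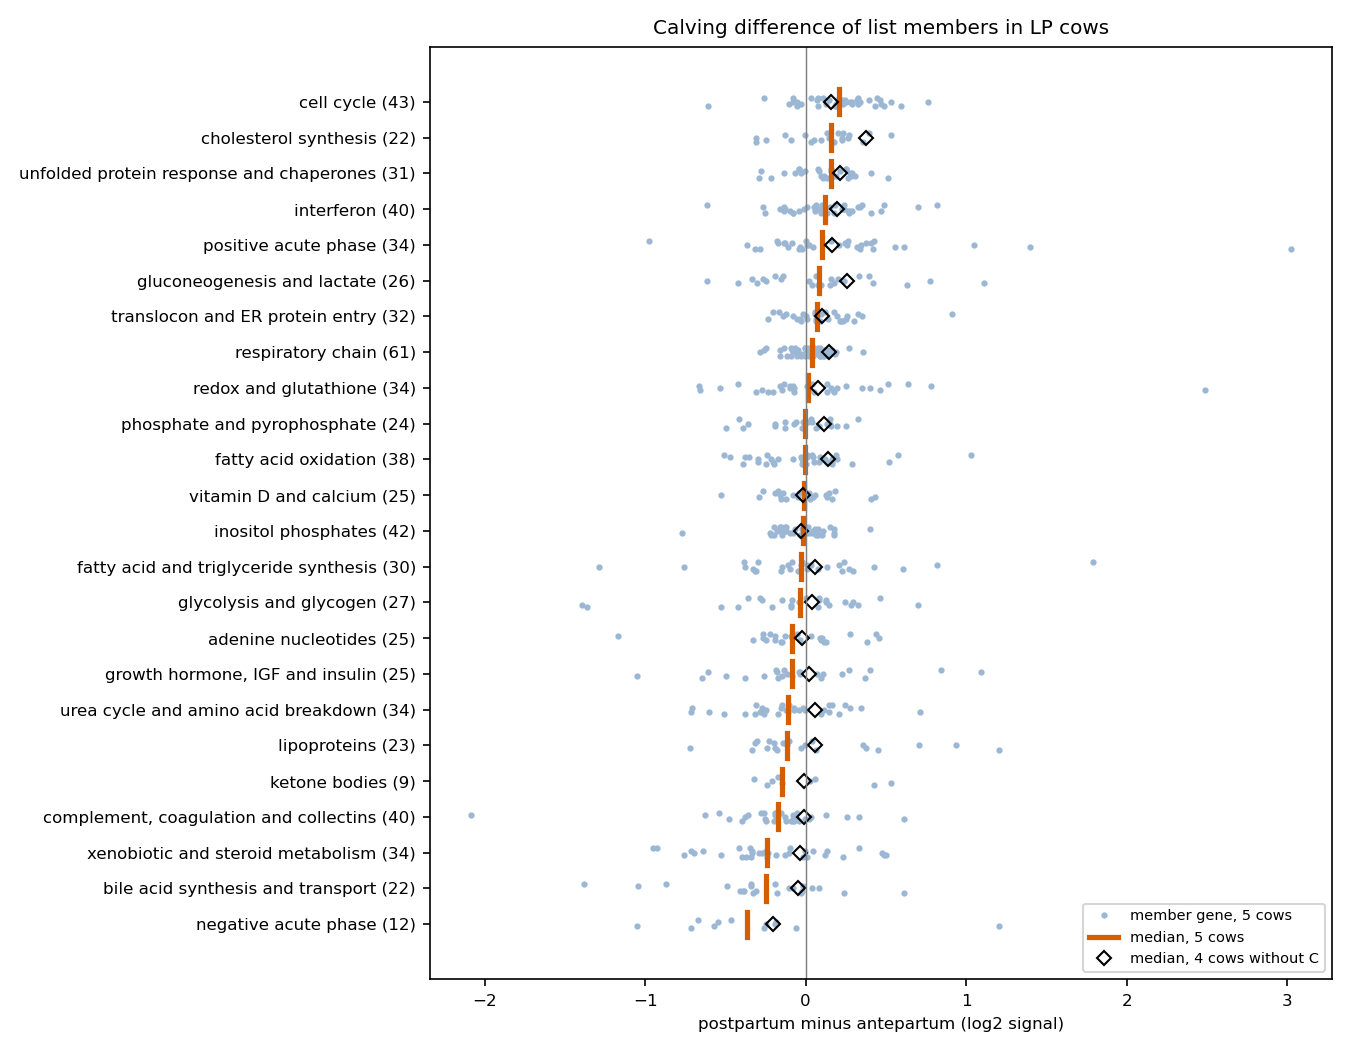
Difference between postpartum and antepartum log2 signal for the members of 24 gene lists in LP cows, with the number of measured members in brackets; pale points are genes over 5 cows, orange bars their medians and open diamonds the medians over the 4 cows without C. Cell cycle genes have the highest 5-cow median (0.21) and negative acute phase genes the lowest (-0.36), and 9 medians are positive over 5 cows against 16 without C.

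The machinery that brings secreted proteins into the endoplasmic reticulum held SSR4, a subunit of the translocon-associated complex. SSR4 was 9.20, 8.97, 9.77, 9.58 and 9.11 postpartum, against 8.59, 8.48, 8.45, 8.31 and 8.26 antepartum, with no overlap (0.91, SE 0.154, limma adjusted p = 0.323). Its partner SSR3 and the glycosylation subunit RPN2 were higher in 5 of 5 cows by 0.35 (SE 0.152) and 0.32 (SE 0.129). In all, 3 of 32 were higher and 0 lower, against 2.14% and 2.79% of all genes, and 4 and 0 without cow C. Of 31 unfolded protein response genes, 2 were higher and 0 lower (5 and 0 without cow C), led by asparagine synthetase ASNS (0.51, SE 0.188) and the disulfide isomerase PDIA6 (0.31, SE 0.128).

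Redox genes counted 4 of 34 higher and 0 lower, against 2.14% and 2.79% of all genes, and 5 and 0 without cow C. PRDX4, a peroxiredoxin of the endoplasmic reticulum, read 7.38, 7.62, 7.54, 7.91 and 7.93 postpartum and 6.95, 6.67, 7.21, 7.09 and 7.28 antepartum, all postpartum above all antepartum values (0.64, SE 0.13). GPX4, which reduces lipid peroxides, also showed no overlap, with 8.07 to 8.23 postpartum and 7.45 to 7.94 antepartum (0.40, SE 0.12). SRXN1, sulfiredoxin, was higher by 0.47 (SE 0.145). GPX3, a secreted glutathione peroxidase chosen after its values were seen, had the second highest mean difference of the genes named here, 2.49, with an SE of 0.842. It stood at 7.94, 8.52, 9.74, 11.00 and 11.74 postpartum, against 8.75, 6.27, 9.36, 5.86 and 6.26 antepartum. Cows D and E were higher by more than 5 units and cow A was lower. None of 61 respiratory chain genes had an unadjusted p under 0.05 over 5 cows, and 4 did without cow C, all higher.

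Of 40 interferon-responsive genes 5 were higher and 1 lower, and 8 and 0 without cow C. Shares of all genes were 2.14% and 2.79%, and 3.47% and 2.95% without cow C. HERC6, an interferon-induced ligase, was 6.45, 6.90, 7.58, 6.98 and 7.62 postpartum and 6.35, 5.55, 6.38, 6.82 and 6.36 antepartum (0.82, SE 0.214). OAS1X, an antiviral oligoadenylate synthetase, read 10.23, 4.02, 4.24, 10.34 and 6.12 postpartum, against 9.82, 3.46, 4.23, 9.16 and 4.80 antepartum. Its level differed between cows by more than 6 units at both times, far more than across calving (0.70, SE 0.195, higher in 5 of 5). GBP2, a guanylate-binding protein, was higher by 0.47 (SE 0.146), and CXCL9, a chemokine, lower with a difference of -0.61 (SE 0.252). The CXCL9 difference was -0.36 without cow C.

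Cell cycle genes had 7 of 43 higher and 1 lower, where 2.14% and 2.79% of all genes were. A positive mean was found in 35 of 43, and in 49.1% of all genes. RRM2, a subunit of the enzyme that makes deoxynucleotides, stood at 6.70, 6.58, 7.07, 5.88 and 6.33 postpartum, against 5.50, 5.74, 5.95, 5.49 and 6.09 antepartum (0.76, SE 0.166), higher in each cow though the groups overlapped. BUB1 and CDC20, of the spindle checkpoint, were higher in 5 of 5 cows by 0.34 (SE 0.126) and 0.29 (SE 0.112). CDKN1A, the inhibitor p21, was lower with a difference of -0.61 (SE 0.189). Without cow C the counts were 4 higher and 1 lower.

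Complement, coagulation and collectin genes counted 0 of 40 higher and 5 lower, and 1 and 2 without cow C. Over all genes the shares were 2.14% and 2.79%, and 3.47% and 2.95% without cow C. CGN1, the bovine collectin conglutinin, a sugar-binding protein of innate defence, had the largest negative difference among the genes named by size. It read 9.98, 9.93, 7.75, 7.77 and 8.06 postpartum, against 10.53, 11.10, 10.42, 10.64 and 11.21 antepartum. No values overlapped, and cows C, D and E were lower by more than 2 units where cow A was lower by 0.55. The means were 8.70 ± 1.15 and 10.78 ± 0.35 (SD, n = 5), 4.23-fold apart (log2 -2.08, SE 0.359, limma adjusted p = 0.323). CFD, complement factor D, was lower with a difference of -0.63 (SE 0.152) with no overlap, and PROC, the anticoagulant protein C, with -0.48 (SE 0.18), or -0.27 without cow C.

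Of 34 drug and steroid metabolism genes, 2 were higher and 9 lower over 5 cows, and 6 and 5 without cow C. Among all genes 2.14% were higher and 2.79% lower over 5 cows, and 3.47% and 2.95% without cow C. CYP2C19, a cytochrome P450 of drug oxidation, was 12.16, 12.34, 11.24, 11.75 and 10.50 postpartum, against 12.38, 12.68, 12.47, 12.65 and 12.59 antepartum, without overlap (-0.95, SE 0.249). CYP26A1, which breaks down retinoic acid, was lower with a difference of -0.76 (SE 0.214) and CYP2C18 with -0.72 (SE 0.238). CYP39A1, an oxysterol hydroxylase, and HSD17B13, a lipid droplet enzyme, were higher in 4 of 5 cows by 0.47 (SE 0.167) and 0.49 (SE 0.19), cow C being the exception in both.

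Further genes of large difference lay outside these lists. CCL2, a monocyte-attracting chemokine, was 4.83, 5.41, 8.63, 6.43 and 5.17 postpartum, against 4.36, 5.05, 5.52, 4.69 and 4.70 antepartum, with cow C highest at both times (1.23, SE 0.371, and 0.76 without C). C5H12orf75 was higher by 1.18 (SE 0.299) without overlap, from 0.06 in cow A to 2.56 in cow E. IGCGAMMA, an immunoglobulin heavy chain constant region, was higher by 1.00 (SE 0.236), and by 0.69 without cow C.

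RNF125, a ubiquitin ligase, stood at 9.07, 9.40, 8.46, 9.66 and 7.99 postpartum, against 10.22, 10.19, 9.53, 11.20 and 10.77 antepartum. It was lower in each cow, by most in cow E and by least in cow B (-1.47, SE 0.256, limma adjusted p = 0.331). SCGB1D, a secretoglobin, was 6.37, 6.33, 3.94, 5.77 and 5.42 postpartum and 7.56, 6.49, 6.71, 7.14 and 7.25 antepartum, without overlap (-1.46, SE 0.302, and -1.14 without cow C). INHBA, the activin A subunit, was lower with a difference of -1.17 (SE 0.269) and PLA2G2D1, a secreted phospholipase, with -1.07 (SE 0.146, limma adjusted p = 0.254), both in 5 of 5 cows.

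The mean of the macrophage markers was lower postpartum in each LP cow. All 12 had a negative mean difference, as had 50.9% of all genes. At an unadjusted p under 0.05, 6 were lower over 5 cows (2.79% of all genes) and 10 over the 4 cows without C (2.95% of all genes). The per-cow median differences were -0.61, -0.55, -0.49, -0.40 and -0.30, and the list's median was -0.46. C1QC, a chain of the complement starter C1q that liver macrophages secrete, read 8.90, 9.64, 9.35, 9.84 and 9.42 postpartum, against 9.63, 10.29, 10.52, 10.24 and 10.14 antepartum. Cow A was lowest at both times and cow C differed most (-0.73, SE 0.134, limma adjusted p = 0.364). C1QA and C1QB, the other 2 chains, were lower with a difference of -0.62 (SE 0.132) and -0.57 (SE 0.131) in 5 of 5 cows.

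TIMD4, a receptor of resident liver macrophages, and CD68, a general macrophage gene, were picked after their values were seen. TIMD4 was 5.94, 5.96, 7.17, 6.14 and 6.31 postpartum and 6.70, 7.13, 6.55, 6.96 and 6.49 antepartum, lower in all cows but C (-0.47, SE 0.234, and -0.74 without C). CD68 was 10.52 postpartum in cow C, against 8.01 to 9.07 in the other postpartum arrays and 8.81 to 9.50 antepartum. The mean of all 12 markers was 7.80, 8.27, 8.65, 8.51 and 8.48 postpartum and 8.33, 8.81, 8.85, 8.96 and 8.80 antepartum.

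Of 7 neutrophil markers 3 were higher and 0 lower, where 2.14% and 2.79% of all genes were, and 2 and 0 without cow C. The 3 were LTF, lactoferrin, with 0.47 (SE 0.163), S100A8, a calcium-binding protein of neutrophils, with 0.32 (SE 0.124), and MMP9, a matrix protease, with 0.52 (SE 0.218). S100A8 also belongs to the positive acute phase list. Mean differences were positive in 5 of the 7 and negative in 2, the receptor genes CXCR2 (-0.28) and CSF3R (-0.11). MMP9 differed by 0.28 without cow C, and the mean of the list spanned 5.45 to 6.18 postpartum and 5.28 to 5.91 antepartum. PRF1, the perforin of killer lymphocytes, was lower with a difference of -0.29 (SE 0.119) and CLEC4G, a lectin of sinusoidal endothelium, with -0.42 (SE 0.162), each in 5 of 5 cows. The 7 endothelial markers were split, 3 with a positive and 4 with a negative mean difference. VWF (0.55) and PECAM1 (0.30) were on the positive side, and CLEC4G alone had an unadjusted p under 0.05. HBB, a globin of red cells, was 5.62, 6.34, 6.22, 6.07 and 5.83 postpartum, against 6.08, 7.78, 6.66, 6.52 and 6.45 antepartum, lower in each cow and most in cow B (-0.68, SE 0.165). The 5 erythroid markers had 3 positive and 2 negative mean differences, with the other globin HBA at 0.21.

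The size of the calving difference varied between LP cows, here over genes picked in the AP cows alone. The same paired model in the 5 AP cows called 467 genes (2.33%), 279 higher (1.39%) and 188 lower (0.939%) postpartum. Of these 467, cow A matched the AP direction in 293 (62.7%), cow B in 354 (75.8%), cow C in 227 (48.6%), cow D in 437 (93.6%) and cow E in 448 (95.9%). All 5 LP cows matched it in 86 genes, and the LP mean in 425 (91.0%). In 171 of them the LP difference ran the same way with an unadjusted p under 0.05. Of all genes, in either direction, 6.16% shared 1 sign in the 5 LP cows and 4.94% had an unadjusted p under 0.05 in LP. Genes within an array are not independent, so these shares carry no test.

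The levels of those genes set cow A apart before calving. The mean of the 279 genes higher in AP cows was 8.23, 7.94, 7.69, 8.42 and 8.46 postpartum in LP cows, against 8.14, 7.58, 7.88, 7.79 and 7.64 antepartum. The mean of the 188 genes lower in AP cows was 7.67, 8.04, 7.55, 7.58 and 7.27 postpartum, against 7.83, 8.06, 8.05, 8.23 and 8.15 antepartum. The first mean minus the second was 0.56, -0.10, 0.14, 0.84 and 1.19 postpartum and 0.31, -0.48, -0.17, -0.44 and -0.51 antepartum. Cow A was thus above the other 4 cows before calving, cow B was the lowest after it, and cows D and E differed most between the times.

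**Figure D4:**
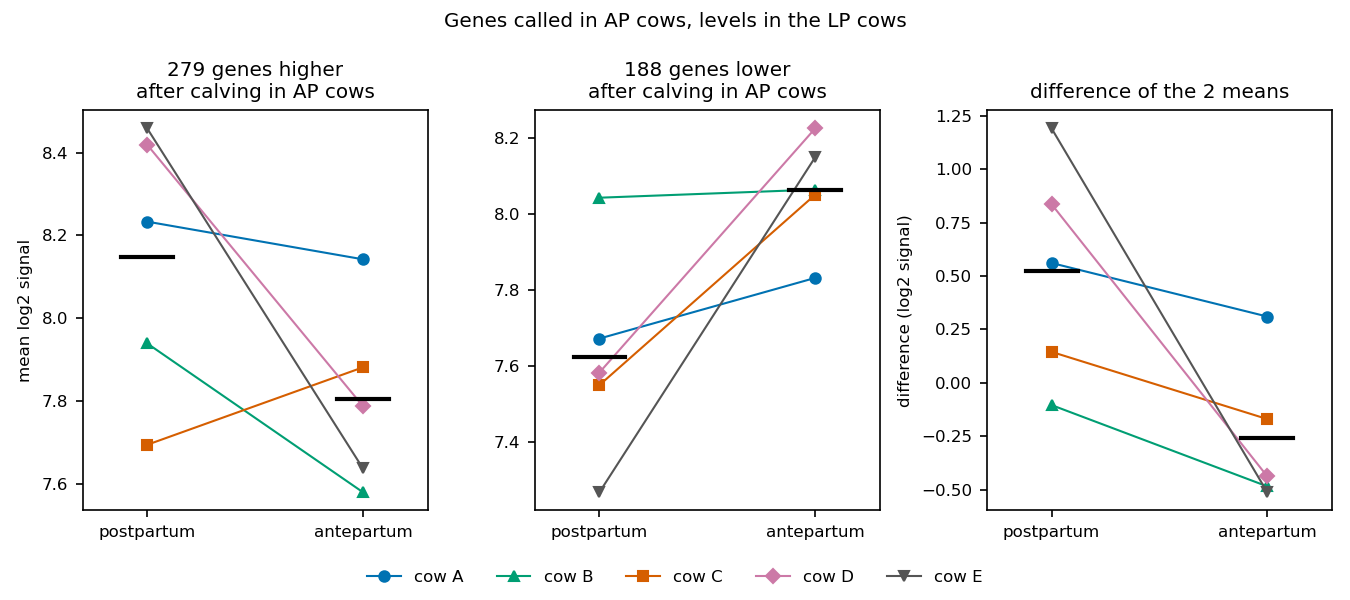
Mean log2 signal, in the 5 LP cows, of the 279 genes higher and the 188 genes lower postpartum in AP cows by limma, and the difference of the 2 means, postpartum on the left and antepartum on the right, with a line per cow and a black bar for the group mean. Cows D and E show the steepest lines, cow A lies highest antepartum in the left panel and cow C is lower postpartum there.

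Whether the change in LP cows differed from that in AP cows was tested on the within-cow differences. No gene passed for LP minus AP (0%), with a smallest limma adjusted p of 0.994, and 786 genes (3.93%) had an unadjusted p under 0.05. The 18 genes named by size had the same sign in AP cows, where 15 of them passed, 8 of 9 higher and 7 of 9 lower. In 12 of the 18 the difference was smaller in LP than in AP. HP differed by 3.02 in LP and 4.36 in AP, a contrast of -1.33 with a 95% interval of -3.01 to 0.35. For APOA1 the 2 values were 1.21 and 1.41 (contrast -0.20, interval -0.62 to 0.21), and for LDHB 1.11 and 1.49 (-0.38, interval -0.78 to 0.03). CCL2 (1.02, interval 0.07 to 1.98) and C5H12orf75 (-0.88, interval -1.72 to -0.04) had unadjusted p-values of 0.0376 and 0.0405 in the limma fit. These contrasts keep cow C, without which the LP difference of CCL2 was smaller, at 0.76.

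Of the 95 genes named by rule, 15 had an unadjusted p under 0.05 for LP minus AP, and none passed after adjustment. The rule took these genes by their size or p in the same LP arrays. Their count therefore cannot be set against the 3.93% of all genes, and the contrasts below are descriptions. IGF1 had the lowest p of the 15, with a difference of -1.05 in LP and -3.02 in AP (contrast 1.97, interval 1.04 to 2.89, limma adjusted p = 0.994). Its partners IGFALS (-0.61 and -1.49) and GHR (-0.65 and -1.25) ran the same way, with contrasts of 0.88 and 0.60. SLC13A5 (1.79 and 3.80, contrast -2.01), ABCG8 (-0.87 and -1.59, contrast 0.72) and CYP26A1 (-0.76 and -1.76, contrast 1.00) were also smaller in LP. In GBP2 (0.47 and -0.21), STEAP4 (-0.98 and 0.21) and C1QA (-0.62 and -0.14) the LP value was the larger in size, with contrasts of 0.67, -1.19 and -0.48.

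Macrophage markers had a median of -0.46 in LP and -0.16 in AP. For LP minus AP 1 of them, C1QA, had an unadjusted p under 0.05 (3.93% of all genes). The contrast was negative in 11 of 12, but also in 35 of 40 complement, coagulation and collectin genes and 33 of 38 fatty acid oxidation genes. It was negative in 0 of 11 fibroblast markers, and the share over all genes was not counted. Fibroblast markers had a median of 0.95 in LP, 0.20 without cow C, and -0.33 in AP. For LP minus AP 5 of 11 had an unadjusted p under 0.05, against 3.93% of all genes. That count is a description, since it keeps cow C and the list holds COL1A1, the gene that chose the pair set aside. The IGF1 difference was widest in cows D and E, at -2.16 and -2.35, and the least in cow B, at 0.09.

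**Figure D5:**
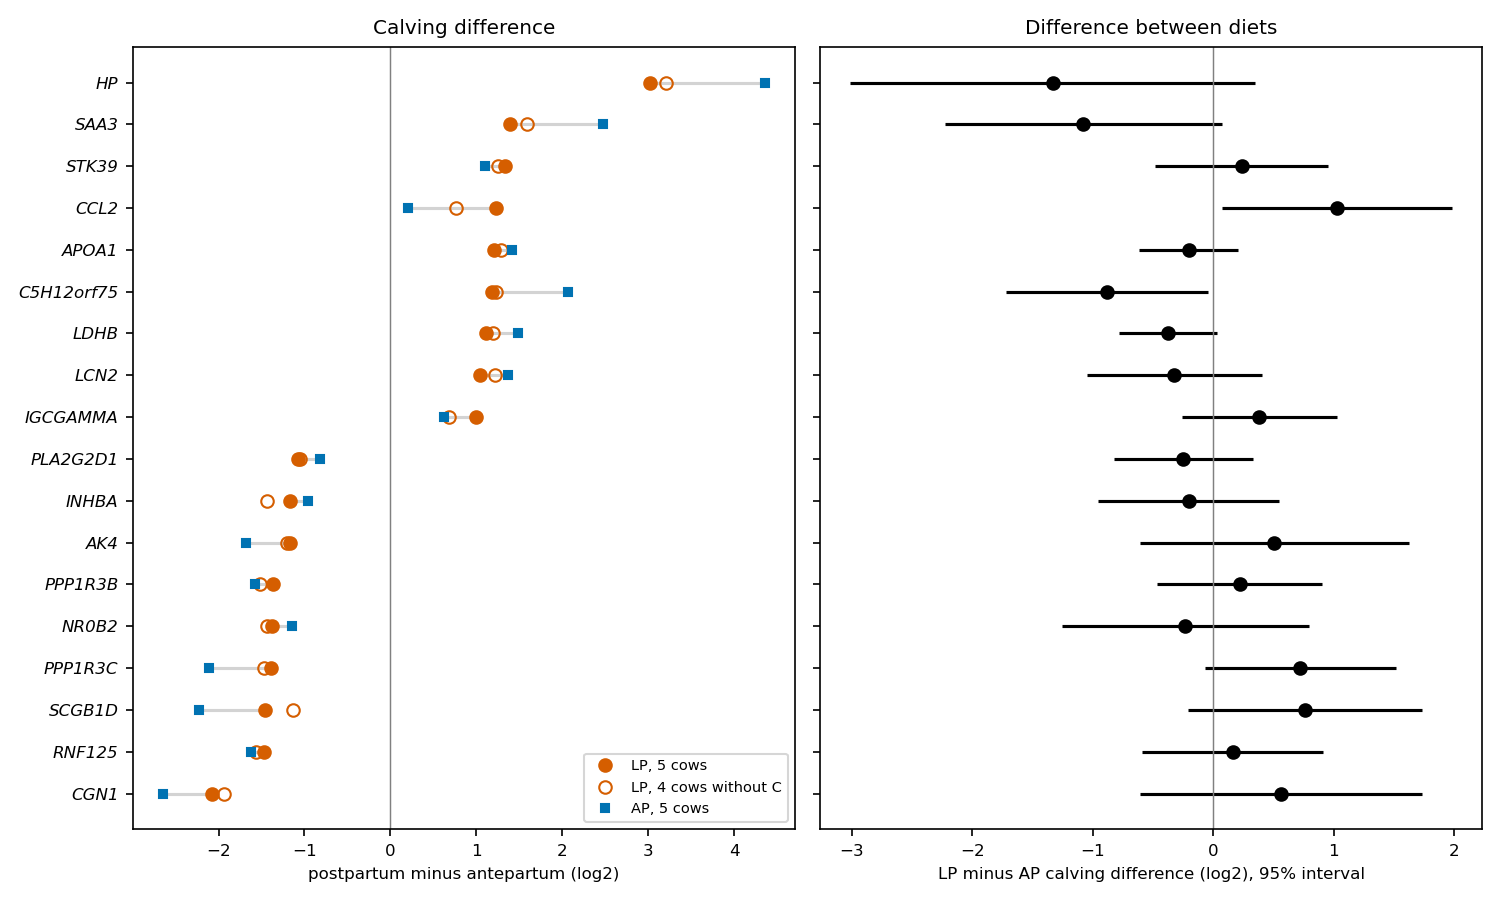
Left, the calving difference in log2 signal of the 18 genes named by size, as filled circles for 5 LP cows, open circles for the 4 LP cows without C and squares for 5 AP cows; right, LP minus AP with its 95% interval from limma. All 18 genes lie on the same side of 0 in both diets, and the interval excludes 0 for CCL2 and C5H12orf75 alone, neither of which passed after adjustment. The intervals on the right keep cow C.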

How the data were processed

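Liver RNA of each cow and time was hybridised to 1 Affymetrix bovine gene array. The authors deposited log2 signals for 24333 probe sets; SST-RMA is named in the file header, and RMA and Affymetrix Expression Console 1.4 in the submitters' processing notes. RMA gives every array nearly 1 distribution, which hides any shift common to all genes. No coordinates are printed, since the sources used here name no build for them.

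The 20421 probe sets with a single symbol gave 20011 genes; for 386 symbols with several probe sets the one brightest over all arrays was used. Another 3912 probe sets without a single symbol were left out. Symbols were kept as deposited and compared with a table of RefSeq names (14476 genes matched by accession, 3663 by symbol, 79 by synonym, 1793 by none). Precision is set by the number of arrays, and differences had a median standard error of 0.14.

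The 10 LP arrays were fitted in R 4.3.3 with limma 3.58.1, with the cow as a block, two-sided and adjusted by Benjamini-Hochberg over 20011 genes. Residuals of arrays of the same cow correlated with r of 0.131 to 0.312, and between cows with a median of -0.0381, and the shared animal number gives the pairing. The 5 AP cows were fitted with the same model, and LP minus AP was tested on within-cow differences of 10 cows. The code was tested on simulated data.

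Genes were named by size (per direction, the 10 of largest mean difference with an unadjusted p under 0.01 and 1 sign in all cows) and by list (up to 3 members per direction of lowest p); symbols starting with LOC or turned into dates were left out. Some genes that these rules select are not reported here. The 24 pathway and 12 marker lists, 810 genes in all, and the cows compared were chosen with earlier results of these data known. Alternatives covered the block, the arrays in the fit, weights, normalization, filters on dim genes, the probe set per symbol, the variance model, the rounded table, the array number and leaving out each cow.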

Additional observations from a re-analysis of the deposited data

Results flagged for a closer look

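Within groups of 5 cows, the extreme value was checked against Dixon's 95% limit for its gap to the nearest other cow. It was exceeded in 11 of 95 gene differences and in 5 of 24 marker means. The limit's rate of about 1 in 20 holds for independent values that were not selected. These genes were named from the same arrays and share them, so the counts carry no test.

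The difference of cow C in COL1A1, 5.94, is a description, since that gene chose the pair set aside. Without COL1A1 the count was 10 of 94, of which cow C held 5. Its difference was 6.31 in ADIPOQ, 3.79 in IGFBP5, 2.25 in IGCGAMMA, 1.63 in LIPG and -1.38 in DECR1. Its postpartum array also stood apart in the marker means of fibroblast or stellate cells (11.2, and 11.0 without COL1A1), adipocytes (9.16) and skeletal muscle (7.32).

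Cow A had the lowest STK39 difference, 0.427, and the lowest antepartum macrophage mean, 8.33. Cow B stood apart in PRPS2, where it alone was not lower (0.0146), and in HBB (-1.43). Cow D had the largest S100A8 difference (0.705). Cow E had the largest GBP2 difference (1.05) and the highest postpartum erythroid mean (5.15).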

How the results depend on the processing

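For 95 named genes, 1687 recomputed values kept their direction and side of the adjusted threshold, 10 went past it, and none turned its direction. The count of genes past it, 0 with the cow as a block on the LP arrays, was 3 with all 20 arrays and no block for the cow (APOA1, LDHB and SYNJ2), 2 with all 20 arrays and the block, 2 with array weights, and 0 to 2 when each cow was left out (STK39 alone without cow A). With no block on the LP arrays alone it stayed 0, with 717 genes at an unadjusted p under 0.05. That unadjusted count, 988, was 1554 with all 20 arrays and the block, 1596 with array weights, 627 among genes with a mean of at least 6, and 669 to 1394 when each cow was left out. The count of genes of at least 2-fold and 1 direction, 30, was 32 to 65 when each cow was left out and fewer cows had to share the direction. Lists with a positive median, 9 of 24, were 14 with array weights and 7 to 16 when each cow was left out (16 without cow C). Named genes with an unadjusted p under 0.05 for LP minus AP, 15, were 9 without pairing by cow and 14 to 19 when each LP cow was left out. The causes were not tested. No detection call was used, so dim genes have no stated limit. Leaving out cows other than C for LP minus AP was chosen after seeing the data.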
